A study of Glycine max with 6 samples.

Results

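The catalase family of soybean (Glycine max) was described in leaves of the cultivar HN95 under saline-alkaline stress, in 3 libraries of leaves that had been given a spray of mesoporous silica nanoparticles (MSN, porous particles of silicon dioxide) and 3 control libraries. The members were 4 genes listed by identifier and annotated with catalase activity, of 45967 genes in the deposited table: GLYMA_04G017500, which the table names CAT4, GLYMA_06G017900, which has no symbol there, GLYMA_14G223500 (CAT3) and GLYMA_17G261700 (CAT2). Both groups are labelled wild type and grew in pots with 20 kg of peat soil and vermiculite that received 3 L of a salt solution. It held sodium chloride (NaCl) and sodium carbonate (Na2CO3) at 40 mM each, and sodium bicarbonate (NaHCO3) and sodium sulfate (Na2SO4) at 320 mM each. MSN plants received a foliar spray of 20 mg/L, and RNA was measured 7 days later. The treatment tag of the 3 MSN libraries reads 20, 21 and 22 mg/L, and they were kept as 1 group because their titles name 1. The sources used here give neither the spray of the control leaves, if any, nor whether replicates came from separate pots. The titles label the 3 libraries of each group as biological replicates. The p-values cover the spread between these libraries, which may not be the spread between pots.

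Catalase is a haem enzyme that splits hydrogen peroxide into water and oxygen without a reducing partner. In green leaves it works mainly in peroxisomes, where glycolate oxidase releases hydrogen peroxide during photorespiration and acyl-CoA oxidase releases it during fatty acid breakdown. Plants carry several catalase genes, and in Arabidopsis the copies differ in the tissue, age and light in which they are used. Soybean descends from an ancient genome duplication, so its genes often come in pairs on different chromosomes.

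The libraries held 63981150 to 67923813 counts, and ribosomal RNA took 0.0934 to 0.223% of them. Leaf identity was read from 39 genes for light harvesting in photosynthesis, all tested. Their summed level was 9185 to 9544 CPM (counts relative to library size) in MSN and 6592 to 6796 CPM in control libraries. Of these genes 32 were called higher in MSN (82.1%) and 2 lower (5.13%), against 29.6 and 29.7% of all tested genes. The 3 genes annotated with oxygen carrier activity, listed as root nodule markers, summed to 30.7 to 35.2 CPM in MSN and 29.3 to 32.8 CPM in control libraries. None of them was at 0, and the annotation alone does not show that they belong to nodules. Summed levels of some markers of other leaf cells also differed between the groups. Their counts stand beside the same shares, 29.6% of all tested genes called higher in MSN and 29.7% called lower. Phloem development genes summed to 102 to 120 CPM in MSN and 38.2 to 48.2 CPM in control libraries, with 15 of 18 tested genes higher in MSN, 0 lower and 2 of 20 genes too low to test. Guard cell and epidermis genes summed to 4294 to 4372 CPM in MSN and 1800 to 1844 CPM in control libraries. Of 61 tested, 18 were higher (29.5%), near the share over all tested genes, and 14 lower (23.0%). Their median log2 fold change was 0.11. Leaf senescence genes, with 2 of 7 higher and 1 lower, summed to 221 to 226 CPM in MSN and 193 to 207 CPM in control libraries. Seed storage terms, which also cover germin-like proteins, summed to 2868 to 2968 CPM in MSN and 1626 to 1670 CPM in control libraries. Of their 49 tested genes 15 were higher (30.6%), near the share over all tested genes, and 12 lower (24.5%). Pollen wall genes stayed at or under 1.00 CPM in MSN and 0.439 CPM in control libraries. The part of these cell types in the catalase values was not tested, and in whole leaves a change in a cell type's share cannot be told apart from a change in RNA per cell.

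The abundant and the scarce catalase copies moved in opposite directions. CAT4 and GLYMA_06G017900 were higher in MSN leaves by 9.82 and 23.1%, although CAT4 turned slightly below 0 under quantile normalisation. The scarcer copies had fitted changes of -36.5% for CAT3 and -34.1% for CAT2. All 4 passed the threshold (edgeR quasi-likelihood test, adjusted p under 0.05 over 39203 tested genes), 2 in each direction. Over all tested genes 59.3% were called, 29.6% as higher in MSN and 29.7% as lower, so being called was common in these libraries. The groups did not overlap in any of the 4 copies, and did not overlap in 65.0% of all tested genes.

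GLYMA_06G017900 was the most abundant copy. It lies on the minus strand of chromosome 6 at 1351502 to 1356327, a span of 4826 bases, with 5 transcripts listed (coordinates are those of the table, whose genome build is not stated). It had 43551, 47078 and 45508 counts in MSN libraries, against 37322, 37461 and 37147 counts in control libraries. In FPKM, which divides by transcript length and sequencing depth, these were 264, 272 and 279 in MSN and 224, 216 and 220 in control. Every MSN library stood above every control library, and on the FPKM scale the coefficient of variation was 2.65% in MSN and 1.77% in control. The log2 fold change was 0.30 (SE 0.03, 95% interval 0.23 to 0.37, edgeR adjusted p = 1.92e-07). By mean FPKM the gene ranked 111 of all genes in MSN and 134 in control.

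CAT4 lies on the minus strand of chromosome 4 at 1365544 to 1370335, a span of 4792 bases, with 2 transcripts. It had 30795, 31595 and 30505 counts in MSN libraries, against 28748, 28096 and 28785 in control libraries, or 178, 174 and 178 FPKM in MSN and 165, 155 and 162 FPKM in control. The groups did not overlap, but the gap was narrow: the lowest MSN library and the highest control library were 174 and 165 FPKM. The log2 fold change was 0.14 (SE 0.03, 95% interval 0.06 to 0.21, edgeR adjusted p = 0.00200). Quantile normalisation with limma voom gave -0.05 (adjusted p = 0.0911), while edgeR with DESeq2 size factors or with library totals gave 0.13 and 0.14. Among genes called higher in MSN, 98.9% had a larger fold change. It ranked 209 by mean FPKM in MSN and 232 in control.

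CAT3 lies on the plus strand of chromosome 14 at 48877831 to 48881153, a span of 3323 bases, with 1 transcript. It had 3725, 3648 and 3706 counts in MSN libraries, against 6059, 5737 and 5874 counts in control libraries. Its FPKM was 26.4, 24.7 and 26.5 in MSN and 42.5, 38.7 and 40.6 in control, so that every MSN library lay well under every control library. The log2 fold change was -0.66 (SE 0.05, 95% interval -0.76 to -0.55, edgeR adjusted p = 1.27e-09), and 37.6% of genes called lower in MSN had a larger fall. Its rank by mean FPKM was 3826 in MSN and 2083 in control.

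CAT2 lies on the plus strand of chromosome 17 at 41553171 to 41556515, a span of 3345 bases, with 1 transcript. It had 3968, 4598 and 4466 counts in MSN libraries, against 6857, 6499 and 6644 counts in control libraries. In FPKM these were 27.1, 30.0 and 30.8 in MSN and 46.4, 42.3 and 44.3 in control. MSN replicate 1 was the lowest library and gave this copy the widest spread of the family, a coefficient of variation of 6.57% in MSN on the FPKM scale, against 4.63% in control. The log2 fold change was -0.60 (SE 0.05, 95% interval -0.71 to -0.49, edgeR adjusted p = 1.43e-08). It ranked 3204 by mean FPKM in MSN and 1855 in control.

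**Figure D1:**
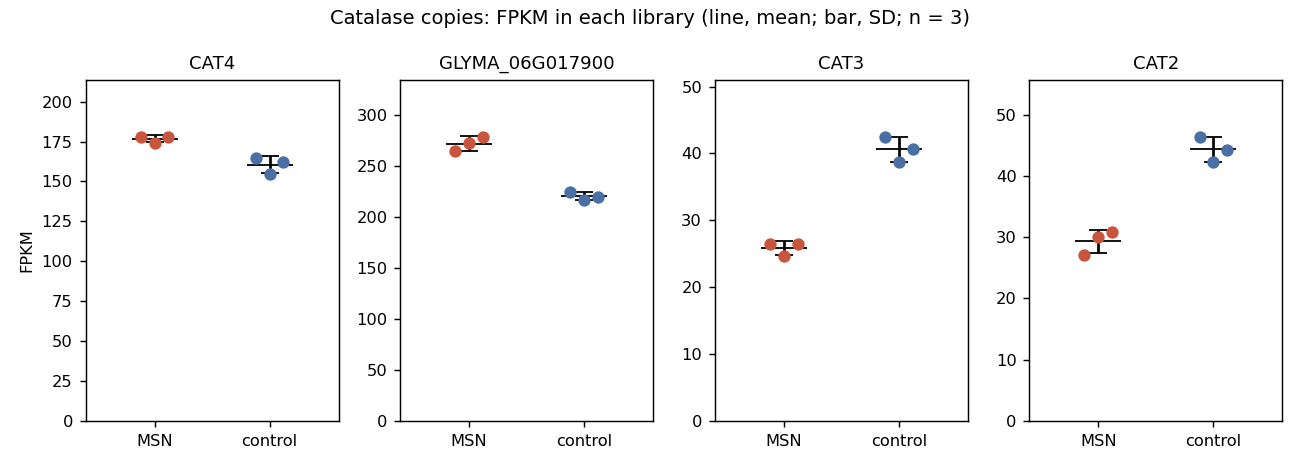
FPKM of each catalase copy in each library, with MSN left of control; points are libraries, horizontal lines means and bars SD (n = 3 each), and each panel has its own axis from 0. MSN libraries lie above all control libraries for CAT4 (174 to 178 FPKM) and GLYMA_06G017900 (264 to 279 FPKM), and below all of them for CAT3 (24.7 to 26.5 FPKM) and CAT2 (27.1 to 30.8 FPKM).

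The order of the copies by FPKM was the same in all 6 libraries: GLYMA_06G017900, CAT4, CAT2, CAT3. The lowest neighbours in that order were close. CAT3 averaged 25.9 ± 1.05 FPKM and CAT2 29.3 ± 1.93 FPKM in MSN (SD, n = 3), and in control they averaged 40.6 ± 1.90 and 44.3 ± 2.06 FPKM. In each group these ranges came close to or ran into each other: the highest CAT3 and lowest CAT2 values were 26.5 and 27.1 FPKM in MSN, and 42.5 and 42.3 FPKM in control. The other steps in the order were larger than the spread between libraries. The transcript length implied by the ratio of count to FPKM varied by 0.707 to 0.719% over the 6 libraries in each copy, including the copies with several transcripts.

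**Figure D2:**
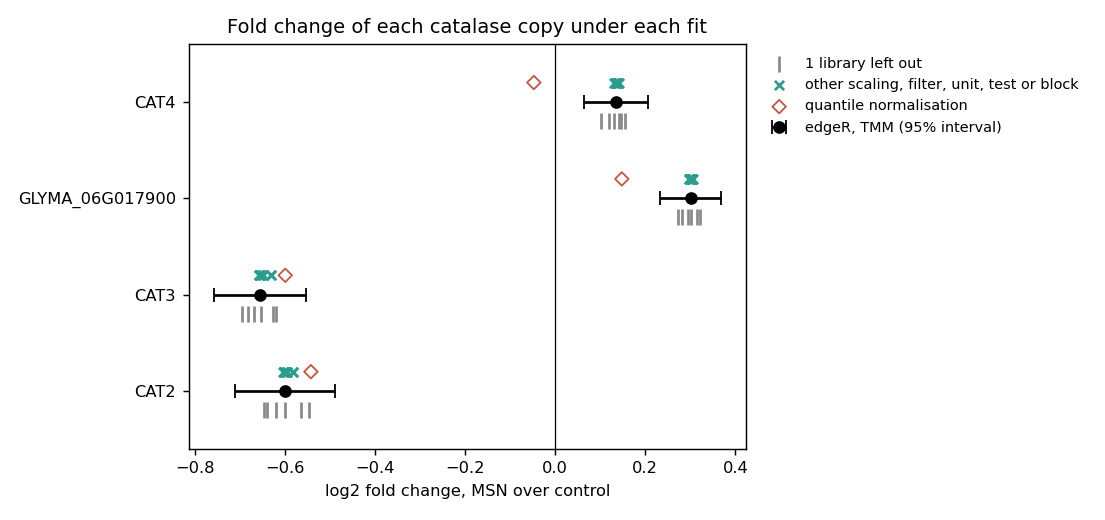
Log2 fold change of each copy, MSN over control, under every fit; black points are the edgeR fit with 95% intervals, ticks the fits with 1 library left out, crosses other fits and diamonds quantile normalisation. GLYMA_06G017900 stays above 0 and CAT3 and CAT2 stay below 0 in every fit shown, while CAT4 lies at 0.14 and moves to -0.05 under quantile normalisation.

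The composition of the catalase transcript pool was set mainly by the chromosome 4 and 6 copies in both groups. GLYMA_06G017900 held 53.3, 54.3 and 54.2% of the summed family FPKM in MSN libraries, against 46.9, 47.9 and 47.1% in control libraries. This difference of 6.66 percentage points separated the groups completely. CAT3 held 5.33, 4.92 and 5.16% in MSN and 8.91, 8.57 and 8.70% in control, a difference of -3.59 points. CAT2 held 5.47, 5.98 and 6.00% in MSN and 9.72, 9.36 and 9.49% in control, a difference of -3.71 points. For these 3 copies the exact permutation test (2-sided) gave p = 0.10, the smallest that 3 against 3 libraries allow, so the shares cannot pass a threshold of 0.05 in this design.

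CAT4 held 35.9, 34.8 and 34.6% in MSN and 34.5, 34.2 and 34.8% in control. The groups overlapped, and the difference of 0.63 points, which was 0.22 points without MSN replicate 1, had an exact permutation p of 0.20 with all 6 libraries. Shares computed on counts gave the same picture for the 3 other copies, with differences of 6.18 points for GLYMA_06G017900, -3.13 for CAT3 and -3.36 for CAT2. For CAT4 the count shares were 37.5, 36.3 and 36.2% in MSN and 36.4, 36.1 and 36.7% in control, a difference of 0.31 points (exact permutation p = 0.70) that turned to -0.11 points without MSN replicate 1.

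**Figure D3:**
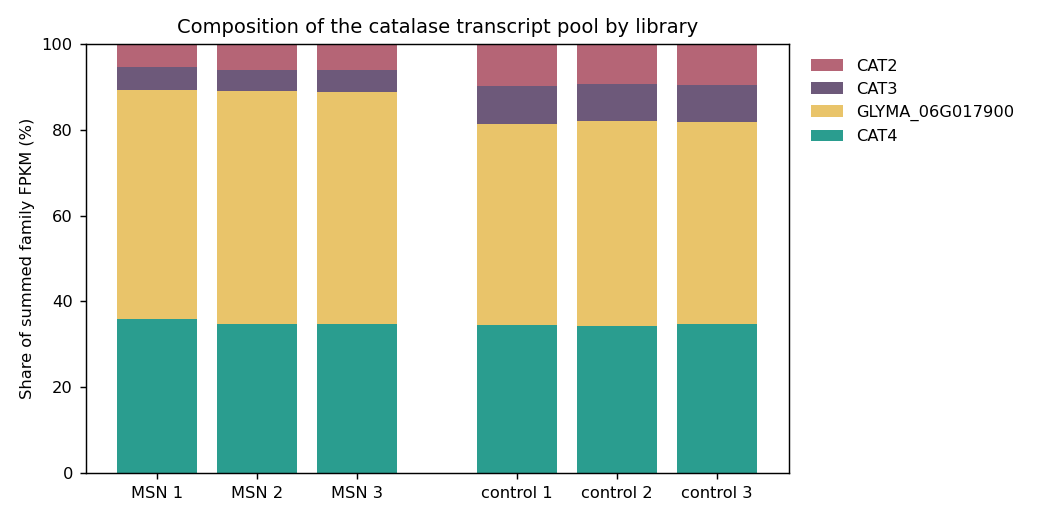
Share of each copy in the summed FPKM of the 4 catalase genes, in percent, for each MSN library (left) and control library (right). GLYMA_06G017900 takes 53.3 to 54.3% in MSN and 46.9 to 47.9% in control, while CAT3 takes 4.92 to 5.33% in MSN and 8.57 to 8.91% in control.

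Ratios between copies within a library, which do not depend on library scaling, were compared for the 6 pairs. GLYMA_06G017900 exceeded CAT3 by 10.0 to 11.0 times in MSN libraries and by 5.27 to 5.59 times in control libraries, a change of 0.95 in the mean log2 ratio. It exceeded CAT2 by 9.04 to 9.73 times in MSN and 4.83 to 5.11 times in control. CAT4 exceeded CAT3 by 6.71 to 7.06 times in MSN and 3.87 to 4.00 times in control, and CAT2 by 5.77 to 6.56 times in MSN and 3.54 to 3.66 times in control. Each of these 4 ratios was higher in all 3 MSN libraries than in any control library.

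Within the pairs the changes were small. The ratio of CAT4 to GLYMA_06G017900 was 0.639 to 0.674 in MSN and 0.715 to 0.739 in control, with no overlap and a change of -0.16 in the mean log2 ratio. The ratio of CAT3 to CAT2 was 0.822 to 0.973 in MSN and 0.915 to 0.917 in control. Its groups overlapped, with a change of -0.05 in the mean log2 ratio, and single MSN and control libraries differed by -0.16 to 0.09. Exact permutation p-values were 0.10 for the other 5 pairs and 0.40 for CAT3 over CAT2, or 0.12 and 0.40 adjusted over the 6 pairs. The counting of any reads shared between copies is not stated, and the sequences of the copies were not compared. The division within a pair may thus be less certain than the sums of the pairs.

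The sum over the pairs shows the same contrast at family level. CAT4 and GLYMA_06G017900 together had 442, 446 and 457 FPKM in MSN libraries and 389, 371 and 382 FPKM in control libraries. CAT3 and CAT2 together had 53.6, 54.6 and 57.3 FPKM in MSN and 88.9, 81.0 and 84.9 FPKM in control. The family total was 504 ± 9.30 FPKM in MSN and 465 ± 12.8 FPKM in control (SD, n = 3 each), higher in MSN by 8.19%. The 3 MSN totals of 496, 501 and 514 FPKM lay above the 3 control totals of 478, 452 and 467 FPKM. The 4 genes took 0.127 to 0.132% of all counts in MSN libraries and 0.115 to 0.121% in control libraries. These sums are given without a test because the members were chosen with results of these data known.

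The annotation of the copies is nearly the same. All 4 share 14 GO (Gene Ontology) terms, among them peroxisome and response to hydrogen peroxide, 7 KEGG pathways and 1 KEGG orthology entry. CAT4, CAT3 and CAT2 also carry the term glyoxysome, the peroxisome type of germinating seedlings that breaks down stored fat, and GLYMA_06G017900 does not. A further gene with the catalase activity term, GLYMA_13G342600, was no member. It is on chromosome 13 at 43405599 to 43413978, had 0 counts in the MSN libraries and 4 counts in control replicate 1, and was too low to test.

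The genes beside each copy were read to see whether a copy moved with its surroundings. The nearest 2 tested genes on each side were taken, 16 in all. MSN leaves had higher levels of 8, lower levels of 5 and no call on the other 3. Over all tested genes 59.3% were called, 29.6% as higher and 29.7% as lower, so calls in both directions were common. CAT4 and GLYMA_06G017900 had neighbours of the same annotations, in the same order on one side. A lipid transport gene stood second to one side, at 62.7 CPM in MSN and 65.4 CPM in control beside CAT4 (GLYMA_04G017300) and at 33.3 CPM in MSN and 35.9 CPM in control beside GLYMA_06G017900 (GLYMA_06G017700), and neither passed the test. Next came a DNA-binding transcription factor gene. GLYMA_04G017400 was at 42.0 ± 0.567 CPM in MSN and 46.2 ± 3.02 CPM in control (log2 fold change -0.14, SE 0.05, edgeR adjusted p = 0.0327), a call lost under quantile normalisation and without MSN replicate 1, MSN replicate 3 or control replicate 2 (adjusted p from 0.0688 to 0.203). Its counterpart GLYMA_06G017800 was at 19.5 ± 1.28 CPM in MSN and 15.7 ± 0.969 CPM in control (log2 fold change 0.32, SE 0.08, adjusted p = 0.00140).

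On the other side of each stood a gene annotated as a 1,4-alpha-glucan branching enzyme, which adds branches to starch, second from CAT4 and next to GLYMA_06G017900. GLYMA_04G017700 rose to 46.6 ± 0.716 CPM in MSN, against 34.4 ± 1.50 CPM in control, and GLYMA_06G018000 to 1.99 ± 0.164 CPM in MSN, against 1.04 ± 0.315 CPM in control. The unannotated neighbours GLYMA_04G017600 and GLYMA_06G018100 had log2 fold changes of 0.18 and 0.37. The call on GLYMA_04G017600 (adjusted p = 0.0288) was lost without MSN replicate 1, MSN replicate 3, control replicate 1 or control replicate 3 (adjusted p from 0.0530 to 0.157), and GLYMA_06G018100 did not pass. The abundant catalase copies thus stood among genes called in both directions and genes that did not pass.

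CAT3 and CAT2 were each followed by an FMN-binding oxidoreductase gene and then a DNA helicase gene, and here the counterparts moved in opposite directions although both catalases fell. Beside CAT3, 1157 bases away, the oxidoreductase gene GLYMA_14G223600, which KEGG places in alpha-linolenic acid metabolism, fell to 20.9 ± 1.23 CPM in MSN, against 31.4 ± 0.746 CPM in control. The helicase gene GLYMA_14G223700 fell to 6.33 ± 0.260 CPM in MSN, against 35.4 ± 2.18 CPM in control, a log2 fold change of -2.48 (SE 0.07, edgeR adjusted p = 2.43e-15). Beside CAT2, 6235 bases away, GLYMA_17G261900 rose to 10.1 ± 0.298 CPM in MSN, against 5.98 ± 0.734 CPM in control, and GLYMA_17G262000 rose to 31.0 ± 0.596 CPM in MSN, against 19.8 ± 0.531 CPM in control.

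Before CAT3 and CAT2 the pattern was again mixed. GLYMA_14G223400 and GLYMA_17G261600, the nearest genes, fell by 0.23 and 0.22 on the log2 scale. Farther out, GLYMA_17G261500, annotated to copper binding at the cell wall, rose by 0.62. GLYMA_14G223300, annotated to protein binding, rose by 0.18 (adjusted p = 0.0188), a call lost without MSN replicate 3 (adjusted p = 0.0979) or control replicate 3 (adjusted p = 0.110).

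**Figure D4:**
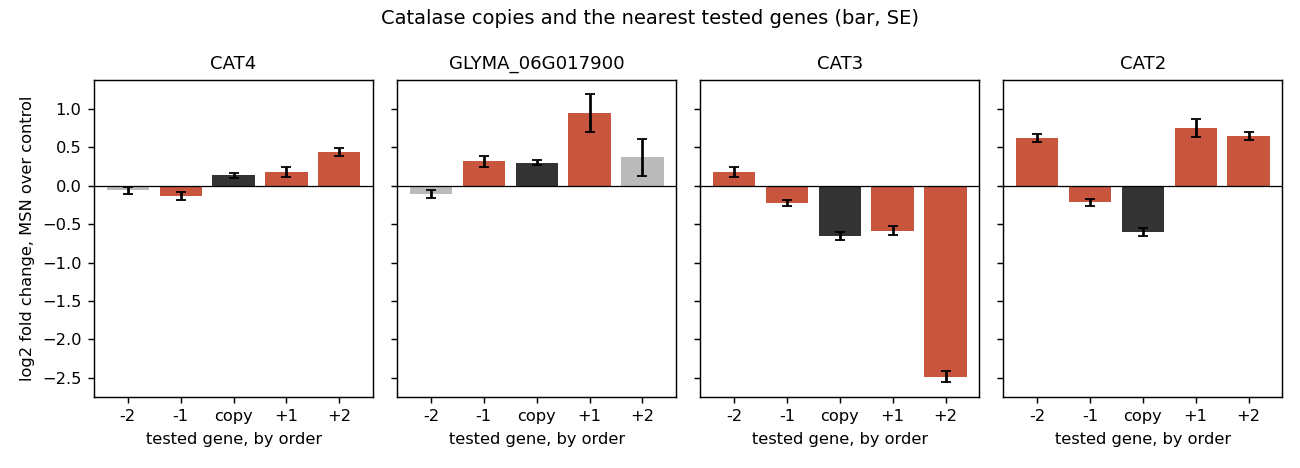
Log2 fold change, MSN over control, of each catalase copy (dark bar) and of the 2 nearest tested genes on each side in order of position; error bars are SE, coloured bars passed the threshold and grey bars did not. The genes after CAT3 lie at -0.59 and -2.48, and those after CAT2 lie at 0.75 and 0.65.

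Genes whose profile over the 6 libraries was most like that of each copy were looked for among 19883 genes with a mean of at least 10 CPM, by Pearson's r of log2 CPM. With 2 groups of 3 libraries such a correlation mostly follows the group difference, and 9.59 to 30.3% of the genes had an r above 0.9 with a given copy. For CAT4 they were GLYMA_15G261800, a thylakoid metalloprotease gene (r = 0.999), and GLYMA_19G187500, a glycosyltransferase gene (r = 0.995). For GLYMA_06G017900 they were GLYMA_06G002900, named GSA1 and annotated to chlorophyll synthesis, and GLYMA_03G183600, an ABC transporter gene. CAT3 was matched by GLYMA_17G222100, a gene of an endoplasmic reticulum membrane complex, and GLYMA_18G240600, a protein kinase gene. CAT2 was matched by GLYMA_08G050100, a chaperonin gene, and GLYMA_09G050600, an amino acid transporter gene. Among the copies, log2 CPM correlated at 0.93 between CAT4 and GLYMA_06G017900, at 0.97 between CAT3 and CAT2 and at -0.94 to -0.80 across the pairs, over 6 libraries that share their totals.

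Other peroxide-handling genes were counted beside the family, with the catalase copies left out of every list. Over all tested genes 29.6% were called higher in MSN and 29.7% lower, and the median log2 fold change was 0.01. The count of each list stands beside these shares. Superoxide dismutases, which make hydrogen peroxide from superoxide, had 8 of 14 genes higher in MSN and 1 lower, with a median of 0.77. Their summed level was 1147 to 1183 CPM in MSN and 782 to 812 CPM in control libraries. The copper- and zinc-binding gene GLYMA_11G192700 rose to 311 ± 3.06 CPM in MSN, against 169 ± 15.3 CPM in control, and GLYMA_19G240400 fell to 69.0 ± 0.639 CPM in MSN, against 82.9 ± 0.518 CPM in control. Ascorbate peroxidases, which remove hydrogen peroxide with ascorbate in the cytosol and chloroplast, had 5 of 7 higher and 2 lower, with a median of 0.36. The most abundant called member in each direction was named, and both are annotated to the chloroplast. GLYMA_11G107200 rose to 148 ± 6.12 CPM in MSN, against 127 ± 3.57 CPM in control, and GLYMA_12G073100 fell to 326 ± 9.66 CPM in MSN, against 355 ± 11.9 CPM in control.

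Glutathione peroxidases and peroxiredoxins, which use thiols to remove peroxides, had 14 of 27 tested genes higher (51.9%) and 3 lower (11.1%). Over all tested genes these shares were 29.6 and 29.7%. The list had a median of 0.25 and 3 further genes too low to test. The peroxiredoxin activity term had 5 of 6 higher and 0 lower, and the glutathione peroxidase term 5 of 14 higher and 3 lower. The most abundant gene called higher was GLYMA_02G198400, a chloroplast peroxiredoxin gene that rose by 0.95 on the log2 scale. Among the 3 lower genes it was GLYMA_05G240100, a cytosolic glutathione peroxidase gene at 39.7 ± 0.748 CPM in MSN and 65.0 ± 1.50 CPM in control. Reductases that recycle ascorbate and glutathione had 8 of 22 higher (36.4%) and 5 lower (22.7%), both nearer to the shares over all tested genes, with a median of 0.03. The dehydroascorbate reductase term, glutathione dehydrogenase (ascorbate) activity, had 4 of 4 higher, led by GLYMA_18G040100 at 110 ± 3.23 CPM in MSN and 68.5 ± 2.41 CPM in control. Glutathione-disulfide reductase activity had 1 of 15 higher and 5 lower, led among the lower genes by GLYMA_10G072700 at 257 ± 6.91 CPM in MSN and 320.5 ± 6.57 CPM in control.

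Oxidases that release hydrogen peroxide, listed by activity and not by compartment, did not move as a block. Of 36 tested genes for peroxide-producing oxidases, 5 were higher (13.9%) and 21 lower (58.3%), with a median of -0.34. Over all tested genes these shares were 29.6 and 29.7%. Hydroxy-acid oxidases, the family of glycolate oxidase, had 3 of 8 higher and 3 lower, but their summed level was 1487 to 1571 CPM in MSN and 883 to 936 CPM in control libraries. Their most abundant called gene, GLYMA_15G250800, rose by 0.73 on the log2 scale. Acyl-CoA oxidases had 0 of 8 higher and 6 lower, with summed levels of 307 to 316 CPM in MSN and 448 to 455 CPM in control. Polyamine oxidases, which release hydrogen peroxide from spermine and spermidine, had 2 of 17 higher and 11 lower. Among them GLYMA_08G303800 fell to 224 ± 4.63 CPM in MSN, against 302 ± 3.61 CPM in control.

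Genes annotated to peroxisome organization or to the KEGG peroxisome pathway had more falls than rises by count, while some of their summed levels were higher in MSN. Peroxins and other genes of peroxisome organization, import and division had 8 of 54 tested genes higher (14.8%) and 26 lower (48.1%). Over all tested genes these shares were 29.6 and 29.7%. The list had a median of -0.13 and summed levels of 1899 to 1940 CPM in MSN and 2076 to 2086 CPM in control libraries. The peroxisome fission term alone had 4 of 17 tested genes higher and 8 lower, and summed to 650 to 656 CPM in MSN and 628 to 637 CPM in control. GLYMA_09G264700, annotated to peroxisome fission, rose to 169 ± 0.455 CPM in MSN, against 144 ± 4.76 CPM in control. GLYMA_05G068600, an ATP-dependent protease gene of the peroxisomal matrix, fell to 102 ± 4.94 CPM in MSN, against 142 ± 2.89 CPM in control. The KEGG peroxisome pathway had 34 of 107 higher (31.8%) and 43 lower (40.2%), the former near the share over all tested genes. Its median was -0.08, but its summed level was 5320 to 5404 CPM in MSN and 4372 to 4431 CPM in control libraries. The pathway includes genes of the lists above, among them the superoxide dismutase gene GLYMA_11G192700, annotated to the cytoplasm and the extracellular space. Its most abundant called genes were GLYMA_15G250800 and, among lower genes, the NADP+ isocitrate dehydrogenase gene GLYMA_02G241200, at 251 ± 3.99 CPM in MSN and 281 ± 4.53 CPM in control.

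Outside the peroxisome, NAD(P)H oxidases of the plasma membrane, which start the production of reactive oxygen in signalling, had 1 of 15 higher (6.67%) and 7 lower (46.7%). Over all tested genes these shares were 29.6 and 29.7%. The median of the list was -0.16. GLYMA_11G020700 fell to 42.2 ± 1.56 CPM in MSN, against 89.4 ± 3.42 CPM in control. The 1 higher gene, GLYMA_05G021100, was at 1.42 ± 0.495 CPM in MSN and 0.645 ± 0.125 CPM in control, and its call was lost without MSN replicate 1, which left 0 genes called higher. The wide terms for response to hydrogen peroxide and its breakdown had 52 of 130 tested genes higher (40%) and 42 lower (32.3%). The latter was near the share over all tested genes, and the median was 0.10. Of these 130 genes, 94 carry peroxidase activity, as the secreted haem peroxidase GLYMA_05G103600 does, which fell to 541 ± 22.7 CPM in MSN, against 1265 ± 57.9 CPM in control. In all, 362 tested genes stood in at least 1 of these lists and 50 in more than 1, so the counts are not independent.

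**Figure D5:**
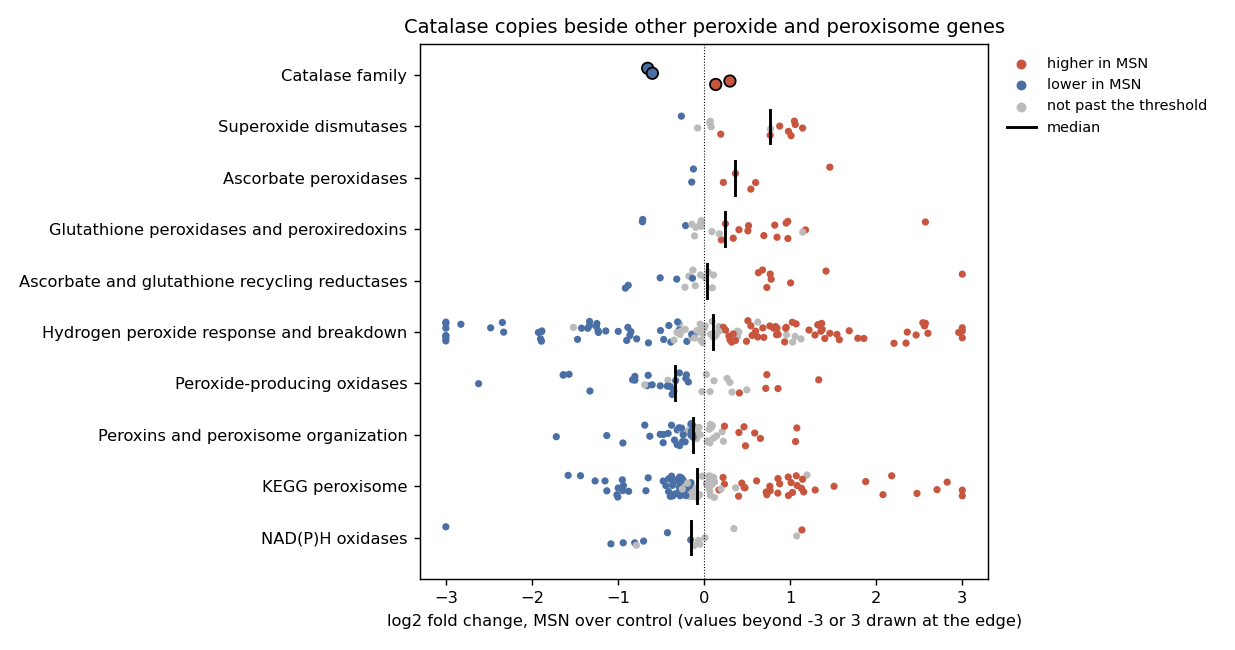
Log2 fold change, MSN over control, of the 4 catalase copies (outlined) and of every tested gene in the peroxide and peroxisome lists; red points passed the threshold as higher, blue as lower, grey did not pass, and black lines are list medians. The catalase copies lie at -0.66, -0.60, 0.14 and 0.30, superoxide dismutases have a median of 0.77 and peroxide-producing oxidases one of -0.34.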

How the data were processed

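Polyadenylated RNA was sequenced from leaves, 3 MSN and 3 control libraries, grouped by their titles. The authors deposited counts and FPKM per gene and library, per the file headers. The deposited counts are whole numbers and were taken as not normalised, and the deposited FPKM are relative to transcript length and depth. The submitters' processing notes list DESeq2 1.34.0 and R 4.1.2 without saying what for. No source used here states the aligner, counter, strand setting, genome build or annotation.

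The test between groups was edgeR's quasi-likelihood test on counts (version 4.0.16 under R 4.3.3, filterByExpr, TMM factors from 0.992 to 1.01), 2-sided, with Benjamini-Hochberg adjustment over 39203 genes at a threshold of 0.05. SE was derived from the F statistic. CPM of single genes are TMM-scaled. Summed CPM of marker lists, superoxide dismutases and other whole lists use library totals, and those of single GO terms cover tested genes and are TMM-scaled. Shares and ratios were tested by exact permutation over libraries (scipy 1.17.1). Lists were matched to exact term names. Small counts pile up at 4, which took 17.7 to 19.0% of counts from 1 to 12, so totals overstate precision. Alternatives used limma 3.58.1 and DESeq2 1.42.0. The fits were also run on simulated counts with few changed genes and a common dispersion for all genes. That setting is unlike these data, so the run cannot show how the fits behave here. Replicate pairs within groups differed by 5.46 to 7.81 times the variance of independent counts, so no replicate repeated the counts of another. As totals overstate precision, this ratio cannot tell technical from biological replicates.

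The members and lists were chosen with earlier results of these data known. Named genes were the members, the most abundant called gene of each list in each direction, the 2 nearest tested genes on each side, and the 2 genes most like each copy. Protein and promoter comparisons were not run.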

Additional observations from a re-analysis of the deposited data

How the results depend on the processing

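Of 64 alternative fits of the 4 copies, 63 kept direction and side of the threshold, and quantile normalisation with limma voom turned CAT4 to -0.0476 on the log2 scale. The cause was not tested. Without 1 library in turn, the log2 fold change ran from 0.102 to 0.155 for CAT4, from 0.272 to 0.321 for GLYMA_06G017900, from -0.696 to -0.620 for CAT3 and from -0.648 to -0.548 for CAT2. The CAT4 share of family counts ran from -0.109 to 0.542 percentage points, turning negative without MSN replicate 1, and its share of family FPKM from 0.222 to 0.862 points. Other shares and ratios kept their direction. Shares cannot pass the threshold in this design, which says nothing on their stability. The family total difference ran from 31.4 to 44.2 FPKM and from 83.9 to 123 CPM. DESeq2 called 2 superoxide dismutases and 8 recycling reductases lower, against 1 and 5 by edgeR. NAD(P)H oxidases called higher ran from 0 to 1 with 1 library left out.

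Same-numbered libraries did not deviate together over all tested genes (correlations of -0.00258 to 0.0104 for equal numbers). With 3 libraries per group this cannot exclude a pairing with a small effect. The fit with the replicate number as a block gave 0.136 for CAT4, 0.300 for GLYMA_06G017900, -0.655 for CAT3 and -0.602 for CAT2, and called 22741 genes, against 23256 without it.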
